A study of Mus musculus with 14 samples.

Results

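Oasl2 and 8 other interferon-stimulated genes (Oasl1, Ifit1, Ifit3, Isg15, Irf7, Bst2, Ifih1 and Rsad2) were followed through entry of mouse embryonic stem (ES) cells into mTOR-inhibitor-induced dormancy. They are 9 of the 54446 gene identifiers in each expression table and were taken by gene symbol, each symbol matching 1 identifier. The set was chosen from earlier results of the same data because Oasl2 stood among the largest rises at 144 h in wild-type cells, so the 144 h values of the 9 genes, and every comparison that reuses the untreated wild-type libraries for Oasl2, are given here as descriptions without a test. The study asked how pluripotency is kept in dormant cells and what part TET enzymes have in it. E14 wild-type (WT) cells were sampled untreated (0 h) and after 24 h, 72 h and 144 h with the mTOR inhibitor Ink128, and Tet1/2 double-knockout (DKO) cells of the same E14 background were sampled at 0 h, 24 h and 72 h. Each of the 7 groups held 2 libraries, 14 in all. mTOR is the kinase that couples nutrient supply to growth, and ERCC spike-in RNA was added to each sample as an external reference. The cells grew on gelatin without feeders and were sorted before RNA extraction, and the DKO line descends from sorted single cells, so its genotype cannot be told apart from the history of that line. There was no DKO group at 144 h.

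Type I interferons are secreted when a cell senses foreign nucleic acid. They bind the IFNAR1 and IFNAR2 receptor chains, the kinases JAK1 and TYK2 phosphorylate STAT proteins, and these join IRF9 into a complex that binds the interferon-stimulated response element (ISRE) in front of target genes. Interferon gamma has a receptor of its own and induces IRF1 and the guanylate-binding proteins. Pluripotent stem cells are known for a weak interferon response and for steady expression of a subset of antiviral genes without interferon. The 9 genes cover several roles: OASL1 and OASL2 are oligoadenylate synthetase-like proteins, IFIT1 and IFIT3 bind viral RNA, ISG15 is a ubiquitin-like modifier, IRF7 is the factor that amplifies interferon production, BST2 (tetherin) holds budding virions at the cell surface, IFIH1 (MDA5) senses long double-stranded RNA and RSAD2 (viperin) makes a chain-terminating nucleotide.

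The sequences in front of 4 of the genes are shown because the set shares a textbook response element that not every member carries. Oasl2 is the gene with the high values at 144 h, Bst2 is the abundant member, and Ifit1 and Isg15 are classical targets. The runs are RefSeq windows on GRCm38.p6, read 5′ to 3′ on the gene's strand and ending before the first base of the gene in RefSeq or in the files, whichever comes first, at chr5:114896684-114896933 (plus strand) for Oasl2, chr8:71537473-71537722 (minus) for Bst2, chr19:34640639-34640870 (plus) for Ifit1 and chr4:156200819-156201068 (minus) for Isg15. Capitals mark every match to the ISRE letters, GAAA then NN then GAAA without a gap, on either strand.
Oasl2: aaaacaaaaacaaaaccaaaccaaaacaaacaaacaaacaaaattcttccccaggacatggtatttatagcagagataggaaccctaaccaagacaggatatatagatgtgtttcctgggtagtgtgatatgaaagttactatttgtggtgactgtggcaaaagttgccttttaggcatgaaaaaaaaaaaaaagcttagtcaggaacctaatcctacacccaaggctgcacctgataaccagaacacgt
Bst2: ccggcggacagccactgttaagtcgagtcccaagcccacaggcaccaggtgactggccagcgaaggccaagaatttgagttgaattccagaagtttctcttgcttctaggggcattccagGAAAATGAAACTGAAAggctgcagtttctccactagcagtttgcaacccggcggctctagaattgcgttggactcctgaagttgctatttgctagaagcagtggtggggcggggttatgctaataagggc
Ifit1: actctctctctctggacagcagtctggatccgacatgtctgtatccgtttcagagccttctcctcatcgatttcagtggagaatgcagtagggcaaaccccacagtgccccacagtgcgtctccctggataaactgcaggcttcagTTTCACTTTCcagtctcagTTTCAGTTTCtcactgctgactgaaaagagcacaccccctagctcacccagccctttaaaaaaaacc
Isg15: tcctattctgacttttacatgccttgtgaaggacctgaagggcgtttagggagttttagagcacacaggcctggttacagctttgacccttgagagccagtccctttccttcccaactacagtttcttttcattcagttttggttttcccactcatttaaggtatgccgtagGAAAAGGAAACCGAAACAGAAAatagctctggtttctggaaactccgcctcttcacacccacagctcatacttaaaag

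A search of all RefSeq windows from 250 bases before to 50 bases after a gene's start found the ISRE letters in 3.44% of 32851 windows. Windows were at hand for all 9 genes, and 6 of them held the letters: Ifit1 and Ifit3 with 2 matches each, Isg15 with 3 overlapping matches, Bst2 with 2 overlapping matches, and Rsad2 and Ifih1 with 1 each. Oasl2, Oasl1 and Irf7 held none in this window, which says nothing about sites elsewhere. The letters TTCNNNGAA of the interferon gamma-activated site occurred in 8.3% of all windows and among the 9 genes only in Bst2. The 6 genes that hold the ISRE letters therefore include both the most abundant member and 5 members that stayed below 1 TPM.

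Values are in TPM, a transcript abundance in which read numbers are divided by transcript length and scaled to the same total in every library. On top of that, each library was multiplied by the single spike-in factor of the study, between 1.0 (WT 144 h) and 2.81 (DKO 0 h), so that a lower RNA output per cell is kept. The result is called spike-in TPM, and the unmultiplied values are called deposited TPM. Across the 18232 genes that averaged 1 spike-in TPM or more over all libraries, the median gene differed from 0 h by −0.83 on the log2 scale at WT 144 h, by −0.33 at WT 24 h and WT 72 h, by −0.49 at DKO 24 h and by −0.12 at DKO 72 h, and in deposited TPM these medians lay between −0.0077 and 0.14. Directions below refer to spike-in TPM, with deposited TPM beside them where the sign or the call differs. Deposited Tet2 ranged from 96.0 to 143 TPM in the 8 WT libraries and from 15.9 to 22.2 TPM in the 6 DKO libraries. Deposited Tet1 ranged from 191 to 349 TPM in WT and from 147 to 248 TPM in DKO, a value over the whole gene that does not show which exons were retained. ES cell markers (Pou5f1, Nanog, Sox2, Zfp42, Esrrb) summed to 2530 to 6440 spike-in TPM with none under 1 TPM in any group. In every group 4 of 5 leukocyte markers were under 1 TPM, all but Cd68, and their sum was 40.1 to 45.7 TPM at WT 0 h and 8.16 to 9.97 TPM at WT 144 h. Of 5 fibroblast markers, 3 or 4 were under 1 TPM in each group.

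Only 1 of the 9 genes was clearly expressed throughout. Bst2 was at 46.0 to 157 spike-in TPM in every library, Oasl2 ranged from 0.0574 to 7.67 TPM, and 6 genes (Ifit1, Ifit3, Isg15, Irf7, Ifih1 and Rsad2) were under 1 TPM in every library, as the plot of the 9 genes by library shows. Of the 9 genes, 2 passed the same filter on the average level over the 14 libraries. Oasl2 passed with a mean of 1.99 TPM through the groups in which it was high, and Bst2 with 83.9 TPM. The other 7 are described by level alone.

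**Figure D1:**
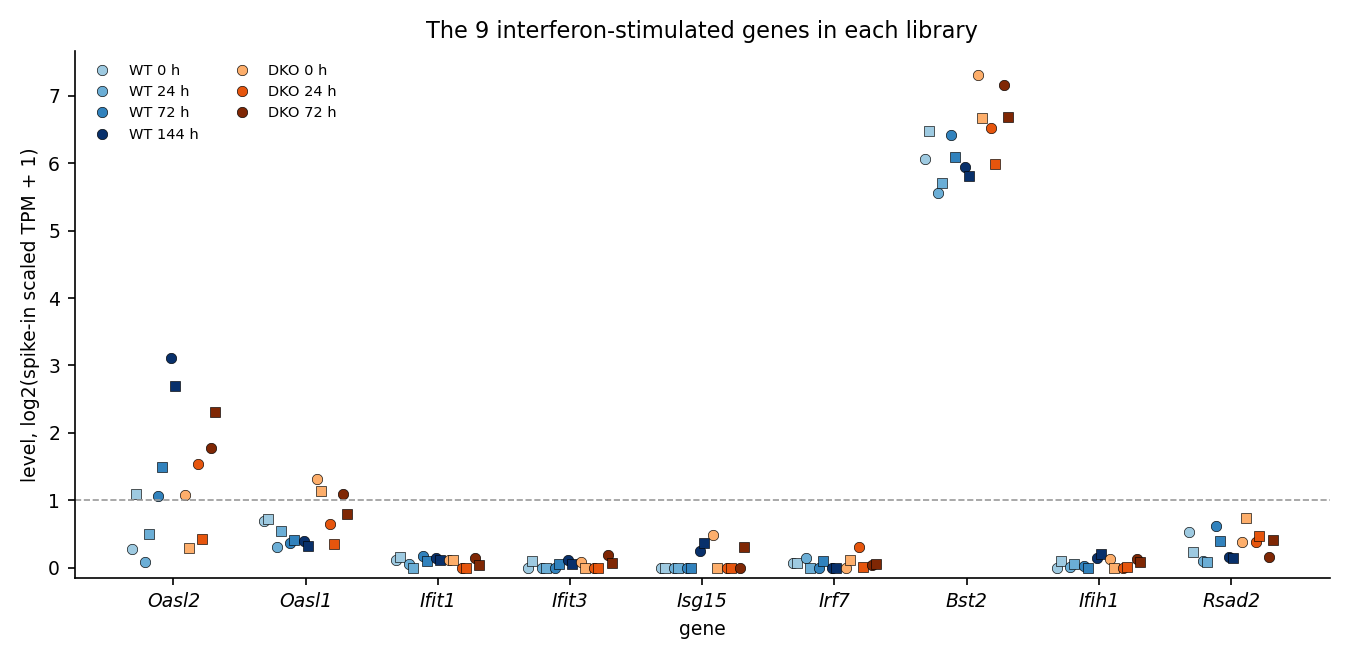
Level of each of the 9 genes in each of the 14 libraries, as log2(spike-in TPM + 1), with circles for replicate 1 and squares for replicate 2, WT groups in blues and DKO groups in browns. The dashed line marks 1 TPM; Bst2 lies far above it everywhere, Oasl2 crosses it, and Ifit1, Ifit3, Isg15, Irf7, Ifih1 and Rsad2 stay below it.

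Oasl2 (ENSMUSG00000029561.17, chr5:114896936-114912234, plus strand, mm10) was near the bottom of the scale in untreated cells and highest in dormant WT cells. In WT cells it was at 0.213 and 1.13 spike-in TPM at 0 h, 0.0574 and 0.414 TPM at 24 h, 1.08 and 1.83 TPM at 72 h, and 7.67 and 5.51 TPM at 144 h. Both 144 h libraries lay above all 12 others, while the 0 h, 24 h and 72 h libraries overlapped from one time to the next except that both 72 h libraries exceeded both 24 h libraries. The group mean at 144 h was 6.59 ± 1.52 TPM (SD, n = 2), 9.84 times the mean at 0 h, and in deposited TPM it was 6.34 ± 1.17 TPM, 20.0 times the mean at 0 h. On the log2(TPM + 1) scale the difference was 2.23 with a standard error (SE) of 0.42, and 2.49 in deposited TPM, which placed Oasl2 at rank 5 and rank 11 of 18232 genes. These are the values for which the gene was chosen. Between 0 h and 24 h Oasl2 differed by −0.39, and between 0 h and 72 h by 0.60. The step from 24 h to 72 h, whose means use none of the 0 h or 144 h libraries, was 0.99 (SE 0.42). It did not pass the test across all genes (limma, adjusted p = 0.39, unadjusted p = 0.029). Its SE and p-values draw on the spread in all 7 groups, those at 0 h and 144 h included.

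In DKO cells Oasl2 was also higher at 72 h than before treatment. It was at 1.12 and 0.224 spike-in TPM at 0 h, 1.92 and 0.337 TPM at 24 h, and 2.44 and 3.94 TPM at 72 h. The 0 h and 24 h libraries overlapped, and both 72 h libraries were above all 4 others. The change from 0 h to 72 h was 1.35 (SE 0.42), short of the threshold in limma with all groups in one fit (adjusted p = 0.077, unadjusted p = 0.0042). The call depends on the processing: with the replicate number as a block within each genotype the adjusted p was 0.012, in deposited TPM the change was 1.04 with an adjusted p of 0.029, after centring on the median gene the adjusted p was 0.018, with no filter on level it was 0.20, with a pseudocount of 0.1 it was 0.14 and with a replicate block across all groups it was 0.10. With each of the 14 libraries left out in turn, the change from 0 h to 72 h ranged from 0.96 to 1.75. At 24 h the change was 0.29 (adjusted p = 0.65). Neither of the 2 tested members was called in DKO cells, against 19.2% of all genes at 24 h and 3.66% at 72 h. In the fits that called Oasl2 at 72 h, 18.5% (block within genotype), 26.3% (deposited TPM) and 28.1% (centred) of all genes were called.

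Ordered by mean, Oasl2 ran from WT 24 h (0.236 TPM) through WT 0 h (0.670), DKO 0 h (0.673), DKO 24 h (1.13) and WT 72 h (1.46) to DKO 72 h (3.19) and WT 144 h (6.59). Each of the first 5 groups overlapped its neighbour in that order, whereas DKO 72 h lay above WT 72 h and WT 144 h above DKO 72 h without overlap in spike-in TPM. In deposited TPM the DKO 72 h libraries, at 0.963 and 2.28 TPM, overlapped the WT 72 h libraries at 0.656 and 1.23 TPM. The DKO minus WT difference at 72 h was 0.76 (SE 0.42, limma adjusted p = 0.25) and 0.69 at 24 h (adjusted p = 1.0). At 0 h it was 0.0052, and −0.071 in deposited TPM. Neither tested member was called between the genotypes at 24 h or 72 h, where 0.0439% and 0.329% of all genes were. The differences in response between DKO and WT, 0.69 at 24 h and 0.76 at 72 h (SE 0.59 each), reuse the 0 h libraries and were not tested.

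**Figure D2:**
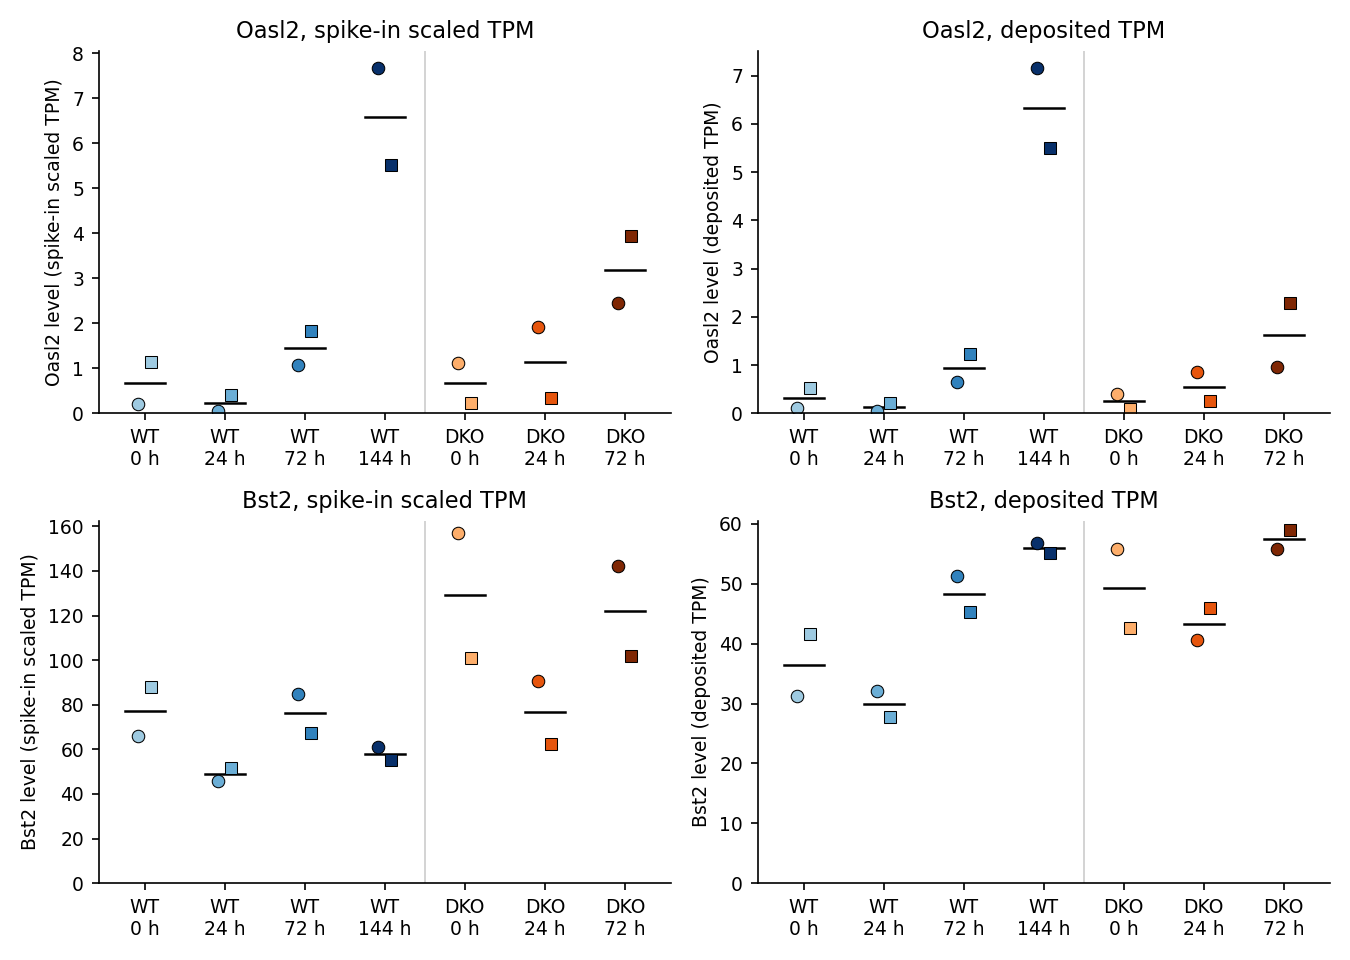
Oasl2 (top) and Bst2 (bottom) in each library in spike-in TPM (left) and deposited TPM (right), by group; circles are replicate 1, squares replicate 2 and bars group means. Oasl2 is highest in both WT 144 h libraries on either scale, whereas the mean of Bst2 at WT 144 h is below WT 0 h in spike-in TPM and above it in deposited TPM.

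Markers of other cell types varied between the libraries of a group. The library with more Oasl2 was also the one with the higher marker sum in 6 of 7 groups for trophectoderm, 5 for primitive endoderm, 4 for ES cells, 3 for leukocytes and 2 for fibroblasts. For Bst2 the same counts were 6, 5, 6, 5 and 2. All these counts are in spike-in TPM, where the factor of a library multiplies the gene and the marker sum alike. They were not made in deposited TPM, and how far the shared factor makes them was not tested. At WT 0 h, for example, primitive endoderm markers (Gata6, Gata4, Sox17, Pdgfra, Sox7) summed to 16.6 and 43.9 TPM beside Oasl2 at 0.213 and 1.13 TPM. Both WT 144 h libraries, with the highest Oasl2, had the lowest primitive endoderm sums, 5.65 and 5.74 TPM, while their trophectoderm sums (21.4 and 18.0 TPM) overlapped those at WT 72 h (18.2 and 23.2 TPM). The part of such cells in the Oasl2 values was not tested, and in bulk RNA a few cells with much of a transcript and many cells with little of it cannot be told apart. This pattern was noticed after the values were seen.

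Oasl1 (chr5:114923240-114937915), the closest relative of Oasl2 and its neighbour 11006 bp downstream on the same strand, did not share the rise. It was at 0.621 and 0.656 spike-in TPM at WT 0 h and at 0.319 and 0.246 TPM at WT 144 h, and all libraries of the later WT groups lay below both 0 h libraries. In deposited TPM the 144 h libraries, at 0.298 and 0.246 TPM, overlapped the 0 h libraries at 0.294 and 0.311 TPM. In DKO cells it was at 1.5 and 1.2 spike-in TPM at 0 h, 0.565 and 0.276 TPM at 24 h, and 1.13 and 0.738 TPM at 72 h. DKO 0 h was its highest group without overlap, also in deposited TPM, where it was at 0.533 and 0.505 TPM. Oasl1 missed the filter with a mean of 0.612 TPM; with no filter, its fall from DKO 0 h to 24 h by 0.73 on the log2 scale passed the test (limma adjusted p = 0.029), and it was the only one of the 9 genes called in any comparison there. In that fit 6.16% of 38890 genes were called at this step. Similar stretches of Oasl1 and Oasl2 may have shared reads, and Oasl1 overlaps the antisense gene Gm13822, which was listed at 0 in every library. Within 60 kb of Oasl2, 2210016L21Rik passed the filter and differed at WT 144 h by −0.49, beside the median of −0.83 over all genes.

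Bst2 (ENSMUSG00000046718.8, chr8:71534255-71537456, minus strand) was abundant in every group and its direction in dormancy turned on the scale. It was at 66.1 and 88.0 spike-in TPM at WT 0 h, 46.0 and 51.5 TPM at 24 h, 84.8 and 67.5 TPM at 72 h, and 60.9 and 55.1 TPM at 144 h. Both 144 h libraries lay below both 0 h libraries. In deposited TPM the order was reversed, with 56.9 and 55.1 TPM at 144 h above 31.3 and 41.7 TPM at 0 h. The difference at 144 h was −0.39 (SE 0.30) in spike-in TPM, 0.44 above the median of all genes, and 0.62 in deposited TPM, both without a test.

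At the earlier times Bst2 did not pass the test in WT cells. It differed from 0 h by −0.64 at 24 h (SE 0.30, limma adjusted p = 0.18, unadjusted p = 0.045), when 9.98% of all genes were called. At 72 h the difference was −0.013 (adjusted p = 0.99), when 8.29% were. In deposited TPM the 72 h difference was 0.41 (adjusted p = 0.084), with 51.3 and 45.3 TPM at 72 h above 31.3 and 41.7 TPM at 0 h. With the replicate block within genotype the 24 h fall passed (adjusted p = 0.030; 30.2% of all genes called). From 24 h to 72 h it differed by 0.63 (adjusted p = 0.49, unadjusted p = 0.049), which in deposited TPM was 0.67 and passed (adjusted p = 0.023; 11.0% of all genes called), as it did after centring (10.5% of all genes called). At this step neither of the 2 tested members was called in spike-in TPM, as against 0.987% of all genes.

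Bst2 was higher in DKO than in WT cells at each shared time, but not past the threshold. It was at 157 and 101 spike-in TPM at DKO 0 h, 90.8 and 62.4 TPM at 24 h, and 142 and 102 TPM at 72 h. Both DKO libraries exceeded both WT libraries at 0 h, 24 h and 72 h. The differences were 0.72, 0.62 and 0.66 (SE 0.30 each), with limma adjusted p of 0.55, 1.0 and 0.21 and unadjusted p of 0.026, 0.051 and 0.039, at a background of 0.0439% of all genes called at 0 h. The median gene was also higher in DKO cells, by 0.29, 0.10 and 0.49. In deposited TPM the differences of Bst2 were 0.42, 0.52 and 0.25. Within DKO cells Bst2 differed from 0 h by −0.74 at 24 h (limma adjusted p = 0.087), and by −1.05 to −0.42 with 1 library left out in turn. The 24 h fall passed with the replicate block within genotype (adjusted p = 0.010, with 40.0% of all genes called). At 72 h the difference was −0.071 (adjusted p = 0.93), and 0.23 in deposited TPM. The response of Bst2 differed between DKO and WT by −0.10 at 24 h and −0.059 at 72 h (SE 0.42, adjusted p = 1.0 for both, with 0.00548% and 0.0% of all genes called). In deposited TPM the difference in response at 24 h was 0.10.

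**Figure D3:**
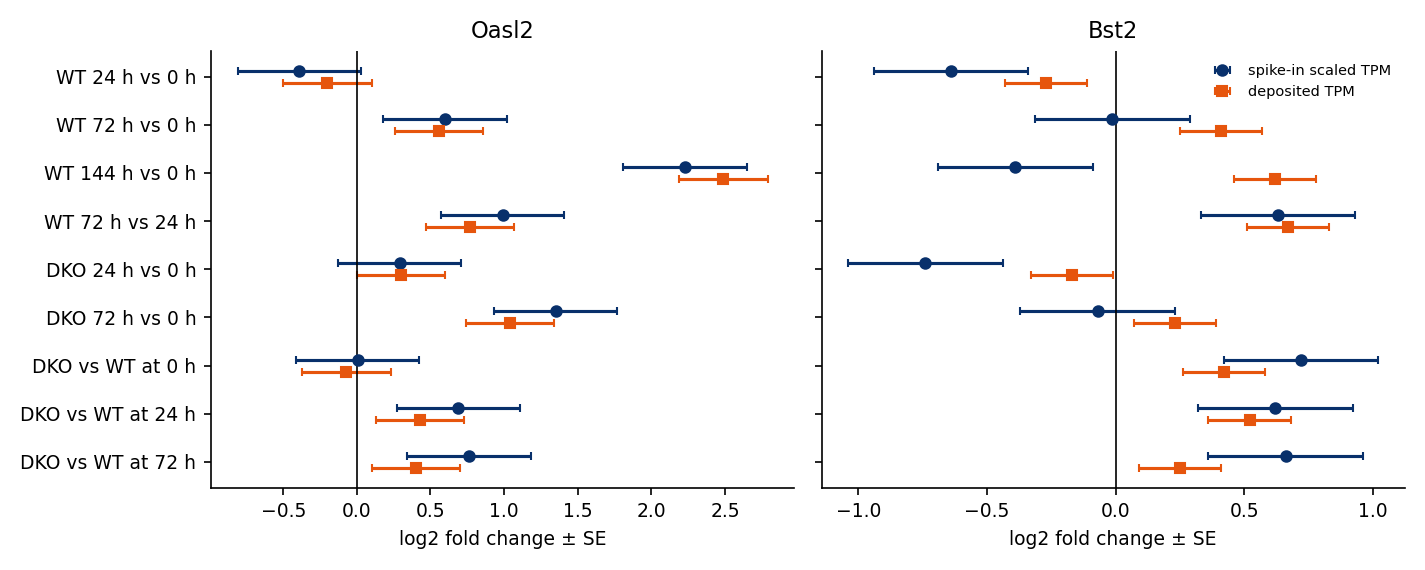
Differences of Oasl2 and Bst2 in 9 comparisons as log2 fold change ± SE from limma, in spike-in TPM (blue circles) and deposited TPM (orange squares), with the first-named group above the second where the value is positive. Oasl2 at WT 144 h reaches 2.23 and 2.49, while Bst2 at WT 144 h lies at −0.39 and 0.62.

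The RNA-binding effectors and the modifier were barely detected. Ifit1 was listed above 0 in 11 of 14 libraries and reached at most 0.126 spike-in TPM, Ifit3 in 7 libraries with at most 0.141 TPM, and both were listed at 0 in both DKO 24 h libraries. Isg15 was listed above 0 in 4 libraries only: WT 144 h at 0.188 and 0.289 TPM, DKO 0 h replicate 1 at 0.395 TPM and DKO 72 h replicate 2 at 0.233 TPM. Both WT 144 h libraries thus showed Isg15 where the 6 other WT libraries did not, at a level below that of 1 DKO 0 h library in spike-in TPM and above it in deposited TPM (0.176 and 0.289 against 0.14 TPM). Rsad2 was listed above 0 in all 14 libraries, from 0.0653 to 0.675 TPM, and at WT 144 h, with 0.112 and 0.109 TPM, it was below the WT 0 h libraries at 0.444 and 0.172 TPM, whereas in deposited TPM the libraries overlapped (0.104 and 0.109 against 0.21 and 0.0815 TPM). Ifit1 and Ifit3 have related genes beside them (Ifit1bl1, Ifit1bl2, Ifit3b), and reads may have been shared where the sequences are alike.

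The sensor and the amplifying factor were as low. Ifih1 was highest at WT 144 h, at 0.107 and 0.146 spike-in TPM, above all 12 other libraries, which ranged from 0 to 0.0955 TPM. Irf7 was listed at 0 in both WT 144 h libraries and reached at most 0.237 TPM, in DKO 24 h replicate 1. Irf7 overlaps Phrf1 on the opposite strand, whose group means ranged from 71.1 to 135 TPM, and whether reads were assigned by strand is not given in the sources used here. At these levels no difference of Ifit1, Ifit3, Isg15, Irf7, Ifih1 or Rsad2 was put to a test in spike-in TPM with the filter, and with no filter none of the 6 passed in any comparison tested.

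The wider interferon pathway was described from a list of 112 other genes, of which 68 passed the filter. The ligands were hardly detected: of 10 type I and III interferon genes, Ifnb1 among them, 9 were listed at 0 in every library and none passed the filter. The receptor chains and their kinases were all measurable, 11 of 11. At WT 144 h, 3 of the 68 genes rose and 33 fell (limma, adjusted p under 0.05 over all genes), beside 0.461% and 50.5% of all genes, and their median difference of −0.77 compared with −0.83 over all genes. In deposited TPM 14 rose and 11 fell, beside 15.6% and 11.7% of all genes (27.3% in either direction), with a median of 0.02. With the replicate block within genotype 4 rose and 41 fell, beside 1.05% and 66.3% of all genes (67.4% in either direction). The share of the list called, 52.9%, was close to the 50.9% of all tested genes. Without replicate 1 of WT 144 h 1 rose and 22 fell (29.7% of all genes lower), and without replicate 2 of WT 144 h 3 rose and 18 fell (21.2% lower).

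The 3 genes that rose at WT 144 h were Gbp2, an interferon-induced GTPase, Zbp1, a sensor of Z-form nucleic acid, and Irf1, the transcription factor of the interferon gamma response. Gbp2 was at 0.102 and 1.41 spike-in TPM at WT 0 h and at 5.71 and 4.43 TPM at 144 h, a difference of 1.89 (SE 0.37). Gbp2 averaged 0.844 TPM over the 12 libraries outside WT 144 h and so passed the filter through the group in which it was high; with no filter its limma adjusted p was 0.010. Zbp1 was at 1.05 and 1.61 TPM at 0 h and at 7.07 and 4.45 TPM at 144 h, a difference of 1.52 (SE 0.39; adjusted p = 0.0045). Irf1 was at 31.6 and 32.9 TPM at 0 h and at 69.3 and 51.1 TPM at 144 h, a difference of 0.87 (SE 0.28; adjusted p = 0.018). In each of the 3 genes both 144 h libraries were above both 0 h libraries, and each rose in deposited TPM too, by 2.15, 1.99 and 1.85. Without replicate 1 of WT 144 h Zbp1 and Irf1 lost the call (adjusted p of 0.060 and 0.19), and Irf1 also lost it without either WT 0 h library (0.089 and 0.088). Zbp1 and Irf1 also rose from WT 24 h to 72 h, by 1.62 (adjusted p = 0.049) and 1.30 (adjusted p = 0.030), together with the GTPase Irgm1, by 2.4 (adjusted p = 0.0034). With no filter the adjusted p of this step was 0.24 for Zbp1, 0.081 for Irf1 and 0.075 for Irgm1. The step from 24 h to 72 h was also lost in all 3 without replicate 1 of WT 72 h (adjusted p of 0.84 for Zbp1, 0.63 for Irf1 and 0.26 for Irgm1). Zbp1 and Irf1 also lost it without any 1 of the other WT 24 h, WT 72 h and WT 144 h libraries (0.053 to 0.23), and Zbp1 without either DKO 72 h library (0.052 and 0.053).

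Of the 33 genes that fell at WT 144 h, 10 belonged to the group of OAS and RNA decay genes, which had 12 tested members and a median of −1.38, beside 50.5% of all genes called lower. In deposited TPM 5 of the 12 fell and 0 rose, beside 11.7% of all genes called lower. The group holds the OAS enzymes and other proteins that act on nucleic acids or their building blocks, among them the RNA editor Adar, the dNTPase Samhd1 and the DNA deaminase Apobec3. Oas3 (−0.14) and Oas1c (−0.53) were not called, and in deposited TPM Oas3, Oas1c and Adar were at 0.39, 0.04 and 0.05. Zc3hav1, the zinc-finger antiviral protein, fell from 72.6 and 51.8 spike-in TPM to 6.45 and 5.49 TPM, by 3.17 on the log2 scale (SE 0.36; limma adjusted p = 1.2e-05). Oas1a, an oligoadenylate synthetase, fell from 32.6 and 16.7 TPM to 2.76 and 1.82 TPM, by 2.91 (SE 0.40; adjusted p = 5.6e-05). The groups of both genes were far apart, and both also fell in deposited TPM, by 2.16 and 1.93. Oas1g fell by 1.63 (adjusted p = 0.0016), which did not pass in deposited TPM, and none of the tested OAS genes was called higher on either scale. Oas1b did not pass the filter and was not tested; in deposited TPM both its 144 h libraries (0.475 and 0.186 TPM) were above both 0 h libraries (0.128 and 0.109 TPM), while in spike-in TPM they overlapped (0.509 and 0.186 against 0.269 and 0.229 TPM). Ube2l6, the conjugating enzyme of ISG15, fell by 2.21 (adjusted p = 0.003), a fall of 1.32 in deposited TPM that did not pass (adjusted p = 0.067), and with no filter its adjusted p was 0.053.

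Further genes that fell at WT 144 h were the kinase Ikbke by 1.84, the adaptor Myd88 by 1.74, the membrane restriction factor Ifitm3 by 2.06 and Ifi35 by 1.67 (adjusted p of 0.00079, 0.0014, 0.00011 and 0.0016). Ifitm3 went from 431 and 522 spike-in TPM at WT 0 h to 77.7 and 124 TPM at 24 h and to 121 and 105 TPM at 144 h, so that it was already low at 24 h. It was among the called genes at each treated time in both genotypes, with differences of −2.26 and −2.46 at WT 24 h and 72 h and of −2.68 and −2.94 at DKO 24 h and 72 h. Ifi35 fell alongside it, with differences of −2.84 and −2.21 in WT and of −2.74 and −2.18 in DKO cells, and its WT 72 h call was lost without replicate 2 of WT 72 h (adjusted p = 0.060).

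The genes of the signalling chain lay around the median of all genes. At WT 144 h Stat2 fell by 1.17 (limma adjusted p = 0.0093), Irf9 by 1.09 (0.020), Mavs by 0.97 (0.018) and the RNA sensor Ddx58 (RIG-I) by 1.25 (0.016), and none of these falls passed in deposited TPM. Mavs and Stat2 lost the call without any 1 of the WT 0 h and WT 144 h libraries, Irf9 without 3 of these (all but replicate 1 of WT 0 h) and Ddx58 without 3 (all but replicate 2 of WT 0 h), with adjusted p from 0.054 to 0.14. With no filter Irf9 and Ddx58 did not pass (0.054 and 0.11). Ifnar1 (−0.70, adjusted p = 0.051), Ifnar2 (−0.67, 0.088) and Irf3 (−0.62, 0.079) did not pass and were positive in deposited TPM, at 0.30, 0.24 and 0.38. With the replicate block within genotype these 3 passed as falls (adjusted p of 0.0089, 0.020 and 0.021). Usp18, the feedback inhibitor of the receptor, was above 0 in 1 library only, DKO 72 h replicate 1 at 0.153 TPM.

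**Figure D4:**
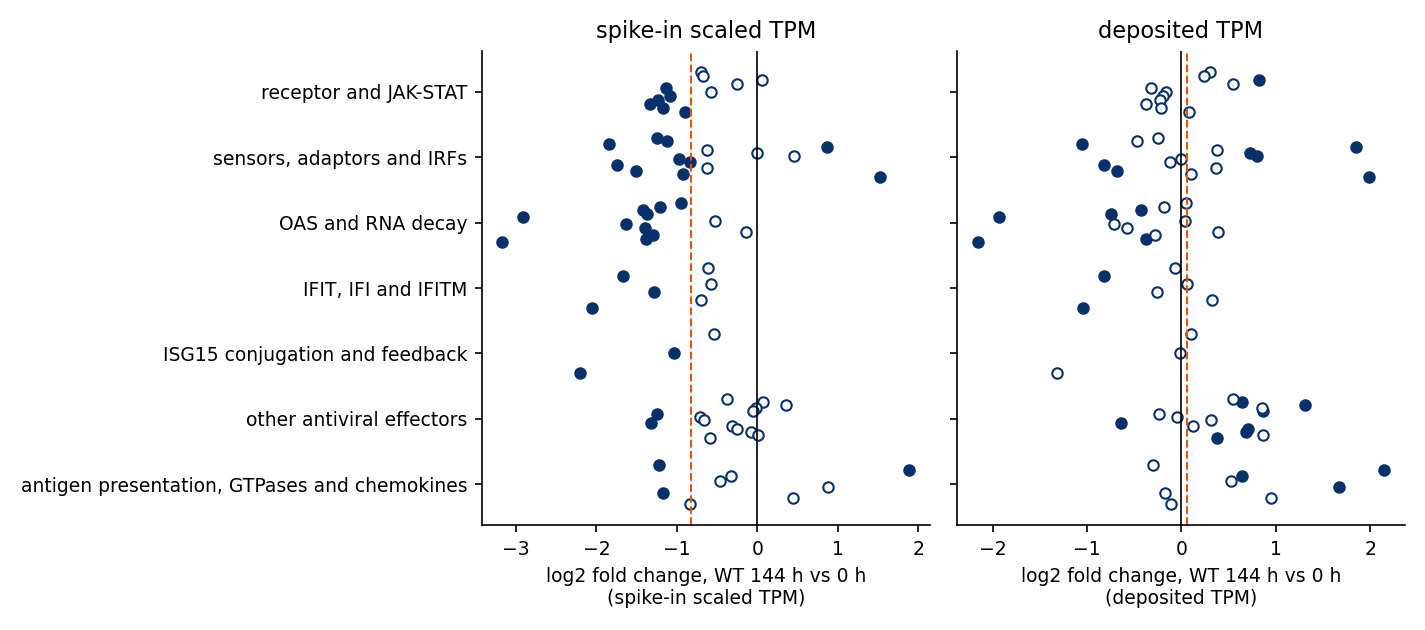
Log2 fold change of the 68 tested other interferon genes between WT 144 h and WT 0 h, 1 point per gene, by role, in spike-in TPM (left) and deposited TPM (right); filled points passed limma's adjusted p under 0.05 and the dashed line is the median of all tested genes. Of the 12 OAS and RNA decay genes Zc3hav1 and Oas1a lie farthest to the left on both scales, Oas3 lies right of the median line on both, and Gbp2, Zbp1 and Irf1 lie to the right.

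Against 0 h, more genes of the list were called lower than higher at each earlier time. In WT cells 0 rose and 11 fell at 24 h (1.25% and 8.73% of all genes), and 0 rose and 10 fell at 72 h (0.697% and 7.6%); with the replicate block within genotype the counts were 2 and 23 (4.48% and 25.7%) and 1 and 26 (2.85% and 25.4%; 28.3% of all genes in either direction). The split was less one-sided in deposited TPM, where 7 rose and 12 fell at 24 h (15.8% and 14.1%; 29.9% together) and 4 rose and 15 fell at 72 h (12.6% and 11.4%; 24.0% together). Beside Ifi35 and Ifitm3, the genes with the largest falls were at 24 h the proteasome subunit Psmb10 (−2.0) and Irgm1 (−1.61; adjusted p = 0.063 with no filter), and at 72 h Oas1a (−2.5) and Zc3hav1 (−1.97). From 24 h to 72 h 3 rose and 2 fell (0.428% and 0.559%), 7 rose and 6 fell in deposited TPM (5.33% and 5.7%; 11.0% together) and 4 and 4 with the block (3.2% and 3.4%; 6.6% together). The falls in spike-in TPM were those of Zc3hav1 (−1.76) and the class I light chain B2m (−1.71). Of these, Zc3hav1 lost the call without any 1 of the WT 24 h or WT 72 h libraries (adjusted p from 0.067 to 0.52) and B2m without replicate 2 of WT 24 h or any 1 of the WT 72 h or WT 144 h libraries (0.053 to 0.56), and neither passed with no filter (0.16 and 0.22). In DKO cells 0 rose and 17 fell at 24 h (0.505% and 18.7%), and 0 rose and 9 fell at 72 h (0.713% and 2.95%); with the block they were 0 and 38 (1.95% and 38.1%) and 3 and 18 (5.34% and 13.2%; 18.5% together). In deposited TPM 3 rose and 11 fell at DKO 24 h (11.6% and 13.3%; 24.9% together), and 6 rose and 14 fell at DKO 72 h (17.2% and 9.06%; 26.3% together). The largest falls other than Ifi35 and Ifitm3 were at DKO 24 h the class I heavy chain H2-K1 (−1.99) and Slfn8 (−1.96), which averaged 0.998 TPM outside DKO 0 h and so passed the filter through the group in which it was high (adjusted p = 0.0096 with no filter), and at DKO 72 h Oas1a (−3.14) and Ifitm1 (−2.29).

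These counts moved when a library was left out. Without any 1 of the WT 0 h or WT 24 h libraries 0 rose and 4 to 6 fell at WT 24 h, beside 1.46% to 5.9% of all genes called lower. Without any 1 of the WT 0 h or WT 72 h libraries 0 rose and 2 to 5 fell at WT 72 h (0.318% to 2.44% of all genes lower), where 1 rose and 18 or 19 fell without replicate 1 or 2 of DKO 24 h (17.3% and 17.0% lower). The step from 24 h to 72 h kept 0 to 2 calls without any 1 of the WT 24 h, WT 72 h or WT 144 h libraries, beside 0.0711% to 0.703% of all genes. At DKO 24 h 8 or 9 fell without either DKO 0 h library or replicate 2 of DKO 24 h (4.2% to 8.95% of all genes lower), and 37 fell without replicate 1 of DKO 24 h (48.0% lower). At DKO 72 h 4 fell without replicate 2 of DKO 72 h (0.385% lower), and 2 rose and 13 fell without replicate 1 or 2 of DKO 24 h (10.5% of all genes called in either direction).

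Between genotypes no gene of the list was called at 0 h or 24 h in limma (14 and 5 of the 68 had an unadjusted p under 0.05, beside 8.35% and 4.14% of all genes). At 72 h 1 was called, Irf5, a factor downstream of Toll-like receptors, at 4.86 and 3.74 TPM in WT and 17.0 and 14.4 TPM in DKO cells (difference 1.66, SE 0.35, adjusted p = 0.047; 0.302% of all genes were called higher). In deposited TPM 5 genes were called higher and 2 lower (3.17% and 0.845% of all genes), and without replicate 1 or 2 of DKO 24 h 8 were called higher and 1 lower (6.89% and 6.58% of all genes higher). Irf5 was higher in both DKO libraries at every shared time, and it lost the call without any 1 of the WT 0 h, WT 72 h, WT 144 h or DKO 72 h libraries and with no filter (adjusted p = 0.088). No gene of the list differed between genotypes in its response at 24 h or 72 h in limma, where 1 gene each had an unadjusted p under 0.05, beside 1.22% and 0.993% of all genes. Blocking on the replicate number within each genotype gave 1 gene called lower in the 24 h response (0.0439% of all genes were).

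Over the 14 libraries, the genes whose log2 values ran most like Oasl2 among the 18232 tested were Gbp2 (Pearson r = 0.865), Erap1 (0.846), Rasef (0.825), 2610528J11Rik (0.805) and Ovol1 (0.801). Gbp2 and Erap1, an aminopeptidase that trims peptides for class I presentation, were also the 2 genes most like it in deposited TPM (r = 0.935 and 0.934), where Uri1, Nfatc4 and Grb7 replaced the other 3. These coefficients describe 7 groups of 2 that share the time course and the spike-in factors. They include the WT 0 h and WT 144 h libraries for which Oasl2 was chosen. A gene that was high at WT 144 h therefore ranks high, and the ranking is a description only. Of the other interferon genes, Irf1 (r = 0.734), Zbp1 (0.721) and Irgm1 (0.681) followed Gbp2, at ranks 17, 22 and 40. In spike-in TPM r was below 0 for 51 of the 68 genes (75.0%), down to −0.881 for Zc3hav1, close to the share of 77.6% over all genes. In deposited TPM r was below 0 for 35 of the 68 (51.5%), beside 43.1% of all genes. Bst2 had r = 0.112 and rank 2801 of 18231, and 0.641 in deposited TPM. The mean of Erap1 was 1.28 spike-in TPM at WT 0 h and 3.87 TPM at 144 h, and 1.99 TPM at DKO 0 h and 4.78 TPM at 72 h. Gbp2 went in DKO cells from 0.514 and 0.277 TPM at 0 h to 0.112 and 0.363 TPM at 24 h and 2.34 and 1.64 TPM at 72 h, with both 72 h libraries above the other 4 as for Oasl2.

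**Figure D5:**
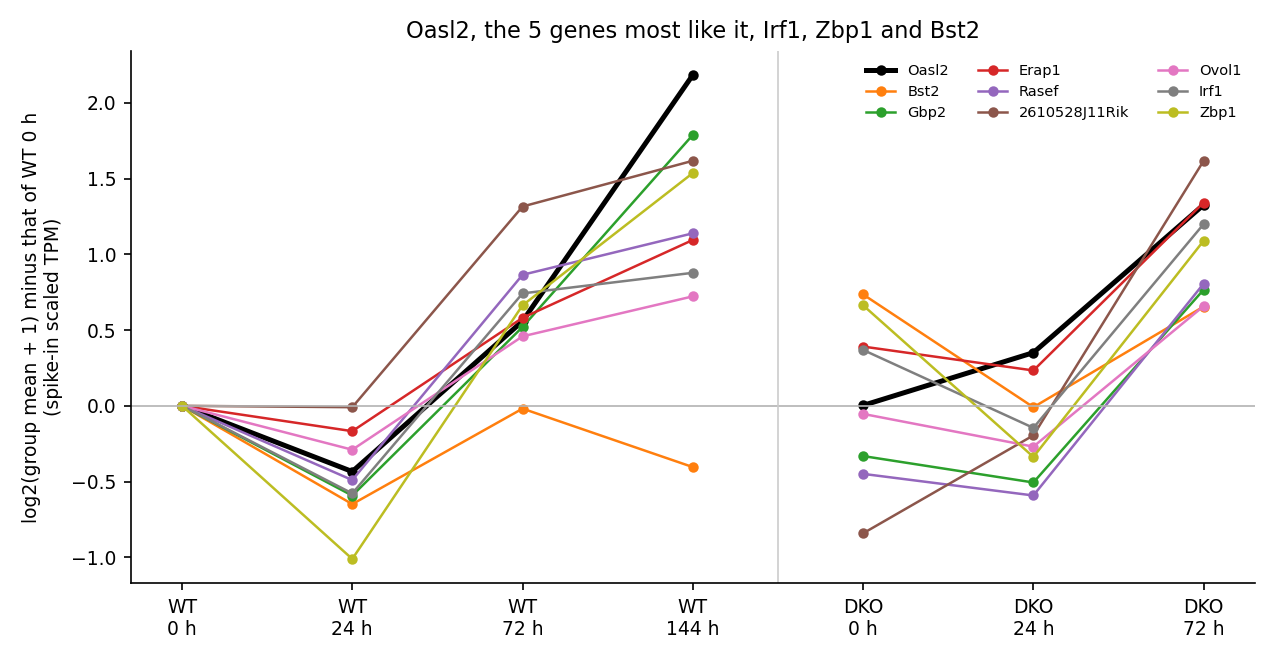
Group means of Oasl2, the 5 genes most like it, Irf1, Zbp1 and Bst2, as log2(mean spike-in TPM + 1) minus the value at WT 0 h, for WT (left) and DKO (right). Oasl2, Gbp2, Erap1 and the other like genes are lowest at 24 h or 0 h and highest at the last time of each genotype, and Bst2 is not.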

How the data were processed

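RNA of 14 libraries (7 groups of 2) was prepared with ribosomal RNA depletion. The deposited files give TPM per gene on mm10, which the authors made by read trimming, alignment and transcript quantification; the submitters' processing notes name cutadapt 2.4, STAR 2.7.3a and StringTie 2.0. TPM keeps no read depth, so no counting error can be given; 28306 to 29927 of 54446 identifiers were above 0 per library. Rows of 1 gene identifier were summed.

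The files hold no spike-in entries. Each library was therefore multiplied by 1 factor, the median ratio of the study's spike-in-scaled supplementary values to the deposited TPM over genes of at least 1 TPM. That table was shortened in the copy used, and every ratio lay within 1% of its library's factor. log2(TPM + 1) was analysed with limma 3.58.1 in R 4.3.3 (7 groups in one fit, moderated variance with an intensity trend, residual df 7) for the 18232 genes that averaged 1 TPM or more, and p-values were adjusted by Benjamini-Hochberg over all of them, with calls at 0.05. The fit was run on simulated libraries with independent spread and a small set of changed genes. That setting had neither the replicate pairing nor the broad fall of these data, so it does not show how the fit behaves with them. The study calls the replicates biological and states that experiments were repeated independently, while the labels do not name separate cultures for these libraries; p-values measure only the spread between these libraries, which may be technical.

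Replicate numbers pair libraries within a genotype: the study processed the time points of each biological replicate in parallel, and deviations of same-numbered libraries correlated at 0.222 to 0.341 in DKO and 0.0622 to 0.398 in WT (3 and 5 of these pairs above 0.1), against −0.501 to 0.116 between genotypes. The fit with the replicate number as a block within each genotype is given where it changes a call.

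The 9 genes and the lists (112 other interferon genes, 5 marker lists of 5) were chosen with earlier results of these data known. Named in the text were the 9 genes, up to 8 called list genes per direction at WT 144 h and up to 4 elsewhere by size, a fixed set (Ifnb1, Ifnar1, Ifnar2, Stat2, Irf9, Irf3, Mavs, Ddx58, Usp18) and the 5 genes most correlated with Oasl2; 1 gene of the fixed set is not reported here. Gene coordinates are those of the files, and promoter sequences come from RefSeq (GRCm38.p6).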

Additional observations from a re-analysis of the deposited data

How the results depend on the processing

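Alternatives were deposited TPM, median-centred values, a pseudocount of 0.1, no filter (38890 genes), no intensity trend, a replicate block across all groups or within each genotype, and each library left out. Counts of the other interferon genes called moved beyond 1.5 times in several comparisons, and the cause was not tested. The share of all genes called moved too. At WT 24 h it was 9.98% in spike-in TPM, 29.9% in deposited TPM and 30.2% with the replicate block within genotype. Where no share of all genes is printed for a setting, its count cannot be read as a result about the list. At WT 24 h the count of 11 became 19 in deposited TPM, 22 centred and 25 with the replicate block within genotype (4 to 13 with 1 library left out). At WT 72 h 10 became 19, 22, 27 with that block and 6 with no filter (2 to 20). At WT 144 h 36 ranged from 21 to 43. From 24 h to 72 h 5 became 13, 10, 8 with the block within genotype, 3 with the replicate block across groups and 0 with no filter (0 to 6). At DKO 24 h 17 became 38 with the replicate block within genotype (8 to 37), and at DKO 72 h 9 became 20, 22 and 21 with it (4 to 15). Between genotypes 0 became 1 at 0 h and 2 at 24 h in deposited TPM, and 2 at 24 h centred (0 to 1 at 0 h, 0 to 0 at 24 h), and at 72 h 1 became 7 in deposited TPM, 4 centred, 2 with no trend and 0 with a pseudocount of 0.1, with no filter or with the replicate block across groups (0 to 9). The block within genotype cannot test DKO against WT at one time. The response difference at 24 h went from 0 to 1 with the replicate block within genotype, and at 72 h it stayed at 0. Of the members, 1 instead of 0 was called at WT 24 h with the replicate block within genotype, at 24 h to 72 h in WT in deposited and centred values, at DKO 24 h with no filter and with that block (0 to 1), and at DKO 72 h in deposited and centred values and with that block (0 to 1), beside shares of all genes called of 30.2% at WT 24 h, 11.0% and 10.5% from 24 h to 72 h, 6.16% and 40.0% at DKO 24 h, and 26.3%, 28.1% and 18.5% at DKO 72 h. All other member counts stayed at 0. The sign reversed in deposited and in centred values for Bst2 at WT 72 h (0.41 and 0.28), WT 144 h (0.62 and 0.44) and DKO 72 h (0.23 and 0.023) and in its response difference at 24 h (0.10 and 0.091), for Oasl2 between the genotypes at 0 h (−0.071 and −0.31), and at WT 144 h for Irf3 (0.38 and 0.22), Ifnar1 (0.30 and 0.14) and Ifnar2 (0.24 and 0.16). With 1 library left out the sign also turned for Oasl2 at WT 24 h (−0.80 to 0.011), at DKO 24 h (−0.27 to 0.86) and between genotypes at 0 h (−0.40 to 0.41), and for Bst2 at WT 72 h (−0.22 to 0.19), at DKO 72 h (−0.38 to 0.24) and in its response differences (−0.41 to 0.21 at 24 h, −0.37 to 0.26 at 72 h), none of them called. Oasl2 at WT 144 h was 3.41 with a pseudocount of 0.1 and 3.06 centred, and 1.82 to 2.63 with 1 library left out. TPM without counts limits what can be said of the genes under 1 TPM.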

Other observations

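The 14 spike-in factors, recovered as median ratios, all equal 76 divided by a whole number between 27 and 76, within 0.01 of a whole number. The numerator was sought among whole numbers up to 1000.

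Among the 112 other interferon genes, 90 had a RefSeq window and 33 of these held the ISRE letters. They were found in 19 of 58 genes that passed the filter on level and in 14 of 32 that did not.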
